A study of Mus musculus with 8 samples.

Results

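The TRBV13 family, known in the older naming of mouse T cell receptors as V beta 8, was described here in T cells from injured mouse brains. Its members were taken by V call, that is, every T cell receptor beta (TRB) chain that had been assigned to TRBV13-1 (V beta 8.3), TRBV13-2 (V beta 8.2), TRBV13-3 (V beta 8.1) or the joint entry TRBV12-2+TRBV13-2. These calls took in 741 of 2967 TRB contigs, 739 of 2920 cells with a beta chain and 498 of 1649 deposited clonotypes with a beta chain. A contig is the assembled sequence of 1 receptor chain in 1 cell, and a clonotype is a set of cells with the same receptor. The joint call held 387 contigs, TRBV13-1 held 160, TRBV13-3 held 140 and the TRBV13-2 call alone held 54.

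The cells were CD45+ leukocytes, sorted from the brains of male C57BL/6 mice 2 months after traumatic brain injury (TBI) by controlled cortical impact. Young mice came from Jackson Laboratory and aged mice from National Institute on Aging colonies, so age and source cannot be told apart. The injury was made at 13 to 15 weeks of age in the young group and at 80 to 82 weeks in the aged group. They were given an antibody against CD49d, the α4 integrin subunit that leukocytes use to enter tissue (aCD49d Ab, clone PS/2), or an isotype control (clone LTF-2), first on the day of injury and then every 2 weeks. The 4 libraries, YTBI_Isotype, YTBI_aCD49d, ATBI_Isotype and ATBI_aCD49d, were each made from 1 pool of 2 mice, so every mouse was injured and no group has a replicate library. Differences between libraries therefore also hold variation between mice and libraries that cannot be estimated here, and no p-value is given. The 95% intervals are exact (Clopper-Pearson) for a single share and Newcombe intervals for a difference, and they cover counting error only. Cells of 1 clonotype are not independent of each other, so intervals on shares of cells are too narrow. Expression of T cell genes was not analysed here, and a cell counts as a T cell because it carries a receptor.

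The libraries held 262 to 1124 TRB contigs, and the median beta chain rested on 6 to 11 unique molecular identifiers (UMIs, which count captured mRNA molecules) in chains outside the family and on 7 to 10 in the family. Of 739 family barcodes, 0 occurred in another library. A second beta chain was found in 19 family cells, 2 of which carried 2 family chains.

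A beta chain is assembled in the thymus from a V, a D and a J segment, and the receptor touches its ligand with the loops CDR1 and CDR2, which the V segment encodes, and with CDR3, which spans the V-D-J junction. V beta 8 chains are used by a large share of conventional CD4+ and CD8+ T cells of C57BL/6 mice. V beta 8.2 is also the main partner of the invariant alpha chain TRAV11-TRAJ18 of invariant natural killer T (iNKT) cells, which see lipids on CD1d.

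The 3 genes lie on the plus strand of chromosome 6 of GRCm38 (mm10), in the order TRBV13-1, TRBV13-2, TRBV13-3, with TRBV12-2 between the first and the second. GENCODE vM21 places the genes at chr6:41116007-41116468, chr6:41121396-41121832 and chr6:41130147-41130585. The sequences below run from FWR1 to FWR3, the exonic stretch of 270 bases up to the CDR3, with CDR1 and CDR2 in capitals. They are shown because, of the V bases compared here, most of those that separate the members lie in this stretch. In every contig of TRBV13-1, TRBV13-2 and TRBV13-3 this stretch was the same as the genome, at chr6:41116183-41116452, chr6:41121547-41121816 and chr6:41130300-41130569.
TRBV13-1: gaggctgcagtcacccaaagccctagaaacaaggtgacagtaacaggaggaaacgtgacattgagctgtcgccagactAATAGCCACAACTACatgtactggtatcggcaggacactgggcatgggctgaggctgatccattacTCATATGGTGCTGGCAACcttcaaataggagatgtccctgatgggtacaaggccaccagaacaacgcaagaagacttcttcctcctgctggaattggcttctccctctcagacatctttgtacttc
TRBV13-2: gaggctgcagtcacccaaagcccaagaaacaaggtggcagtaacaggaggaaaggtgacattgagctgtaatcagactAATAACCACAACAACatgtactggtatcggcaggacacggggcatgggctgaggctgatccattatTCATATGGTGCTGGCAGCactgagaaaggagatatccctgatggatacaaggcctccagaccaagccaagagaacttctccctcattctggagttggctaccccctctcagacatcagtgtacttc
TRBV13-3: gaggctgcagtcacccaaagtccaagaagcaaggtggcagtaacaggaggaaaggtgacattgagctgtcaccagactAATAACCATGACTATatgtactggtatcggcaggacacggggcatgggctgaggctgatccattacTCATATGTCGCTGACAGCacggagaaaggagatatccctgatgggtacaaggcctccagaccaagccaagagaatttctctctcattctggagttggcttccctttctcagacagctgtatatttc

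TRBV13-2 and TRBV13-3 were the closest pair, with 23 of 270 bases and 9 of 90 residues different. TRBV13-1 differed from TRBV13-2 at 32 bases and from TRBV13-3 at 41 bases, which changed 18 and 22 residues. In CDR1 and CDR2 TRBV13-1 and TRBV13-2 differed by 2 bases and 1 base, whereas TRBV13-3 differed from TRBV13-2 by 4 and 3 bases. TRBV12-2, the other gene in the joint name, shared only 44.1% of its bases with TRBV13-2.

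The joint call was TRBV13-2 in its variable region. Of its 387 contigs, 383 had the FWR1 to FWR3 sequence of TRBV13-2 without a single difference, and the other 4 differed from it at 1 base. No joint contig had the CDR1 or CDR2 of TRBV12-2. The joint and the TRBV13-2 contigs differed in how much sequence lay outside the variable region (outside FWR1 to FWR4, that is, the leader and the bases before it plus the part of the constant region that was read). The median joint contig had 231 such bases, with quartiles of 228 and 242. The median was 198.5 bases in contigs called TRBV13-2, 178 in TRBV13-1 and 187.5 in TRBV13-3. In the 137 contigs called TRBV12-2 it was 232 bases, with quartiles of 228 and 244, within 2 bases of the joint call at each quartile. Of the 54 contigs called TRBV13-2, 8 reached the joint median, and 1 joint contig was as short as the TRBV13-2 median.

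**Figure D1:**
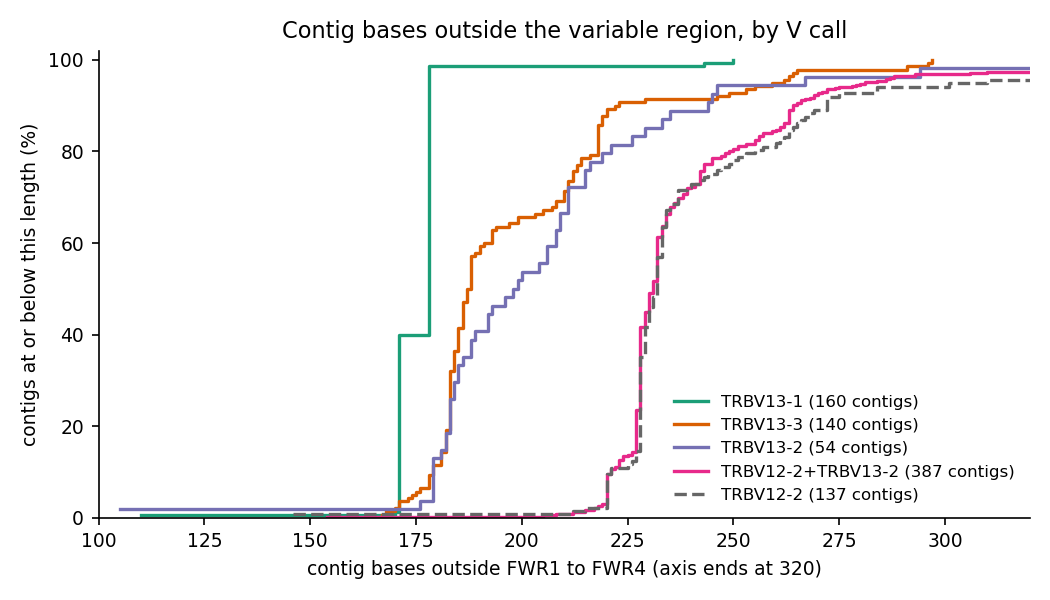
Cumulative share of contigs (%) against the number of contig bases outside FWR1 to FWR4, by V call, over the 4 libraries; the axis ends at 320 bases. The line of TRBV12-2+TRBV13-2 (median 231 bases) runs along that of TRBV12-2 (median 232) and to the right of TRBV13-2 (median 198.5).

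The joint call made up 94.1% of the TRBV13-2 group, that is, of the contigs with either call, in YTBI_Isotype (48 of 51, interval 83.8 to 98.8). The share was 85.7% in the young aCD49d library (66 of 77), 86.5% in the aged isotype library (77 of 89) and 87.5% in the aged aCD49d library (196 of 224). These intervals overlapped. Beta chains rested on a median of 8 UMIs with the joint call and 7 with TRBV13-2.

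The same receptor was found under both names. In 11 cases a beta CDR3 with identical nucleotides occurred in 1 library both in cells with the joint call and in cells called TRBV13-2, and no other pair of V calls shared a CDR3 in this way. These 11 CDR3s were carried by 133 cells with the joint call and 22 cells with TRBV13-2. In 6 of the 11 an alpha chain was read in cells of both calls, and in each of the 6 its CDR3 nucleotides were the same under both. Outside those 6 the match between the calls rests on the beta CDR3 alone. None of the deposited clonotypes held a shared CDR3 under both calls, so each of the 11 beta CDR3s was counted in 2 clonotypes. In 8 of the 11 the TRBV13-2 contigs had fewer bases outside the variable region than the joint ones, by their medians.

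The largest of these was the largest receptor of ATBI_aCD49d. It was deposited as 1 clonotype of 101 cells with the joint call (8.99% of the library's cells) and another of 12 cells with TRBV13-2 (1.07%). Both paired with TRAV9-4 and TRAJ49 wherever an alpha chain was read, in 72 and 9 cells. The contigs had a median of 232 bases outside the variable region in the first and 194 in the second. The second was in ATBI_Isotype, with 17 cells in the joint call and 1 in TRBV13-2, and outside lengths of 232 (median) and 208 bases. Their CDR3 sequences are given with the bases that match neither germline end, V or J, in capitals.
ATBI_aCD49d, TRBJ2-4, 113 cells: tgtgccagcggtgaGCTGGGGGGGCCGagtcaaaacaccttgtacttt
ATBI_Isotype, TRBJ1-6, 18 cells: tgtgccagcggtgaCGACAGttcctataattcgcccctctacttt

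The share of the family differed more between libraries by cells than by clonotypes. The family made up 34.5% of clonotypes with a beta chain in YTBI_Isotype (76 of 220, interval 28.3 to 41.2). It made up 29.4% in the young aCD49d library (133 of 453, 25.2 to 33.8). In aged mice it made up 29.8% with isotype (134 of 449, 25.7 to 34.3) and 29.4% with aCD49d Ab (155 of 527, 25.6 to 33.5). By cells the family made up 35.3% in YTBI_Isotype (89 of 252, interval 29.4 to 41.6) and 27.4% in YTBI_aCD49d (154 of 562, 23.8 to 31.3). The aged libraries had 16.9% with isotype (170 of 1004, 14.7 to 19.4) and 29.6% with aCD49d Ab (326 of 1102, 26.9 to 32.4). ATBI_Isotype stood below the other 3 libraries by cells and its interval did not reach theirs, while by clonotypes all intervals overlapped.

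**Figure D2:**
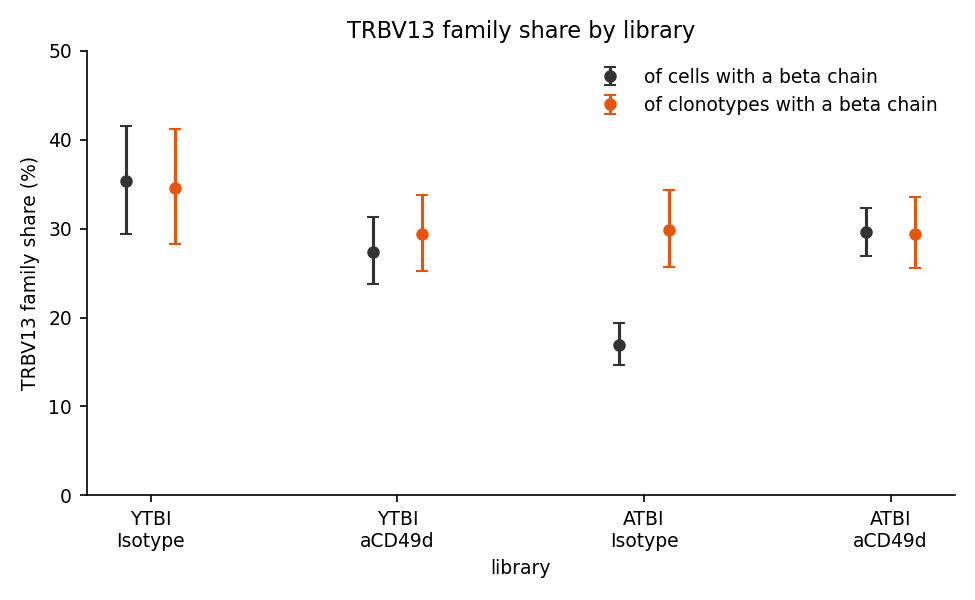
TRBV13 family share (%) of cells (black) and of deposited clonotypes (orange) with a beta chain in each of the 4 libraries; bars are exact 95% intervals for counting error. By cells ATBI_Isotype (16.9%) lies below the other 3 libraries, and by clonotypes the shares lie between 29.4% and 34.5%.

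The comparison of antibody with isotype within each age asked whether blockade of CD49d went with another use of the family. In aged mice the family share of clonotypes differed by -0.43 percentage points (aCD49d minus isotype), with a Newcombe interval for the difference of -6.34 to 5.43. By cells it was 12.7 points higher with aCD49d Ab (9.01 to 16.3). Without the largest deposited clonotype of each library, which in ATBI_aCD49d is the 101-cell family clonotype, the difference by cells was 3.55 points (-0.18 to 7.25), and with the joint call left out of the family it was 2.53 points (-0.16 to 5.21). In young mice the difference was -5.19 points by clonotypes (-13.1 to 2.49) and -7.915 points by cells (-15.2 to -0.85), or -4.52 points by cells without the largest clonotypes (-11.9 to 2.62). With the joint call left out the young difference was -1.01 points by cells (-6.95 to 4.46) and 1.78 points by clonotypes (-4.58 to 7.60).

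Between ages, the share of clonotypes differed by -4.701 points with isotype (ATBI_Isotype minus YTBI_Isotype, -12.6 to 2.99) and by 0.052 points between the aCD49d libraries (-5.82 to 5.89). By cells ATBI_Isotype was lower than YTBI_Isotype, with a difference of -18.4 points (-25.03 to -11.99), or -14.5 points without the largest clonotypes (-21.3 to -8.06). ATBI_aCD49d was 2.18 points above YTBI_aCD49d by cells (-2.54 to 6.78), but the difference was -6.47 points without the largest clonotypes (-11.3 to -1.78). With the joint call left out, the isotype difference was 3.93 points by clonotypes (-2.53 to 9.87) and -7.40 points by cells (-12.9 to -2.60), and the aCD49d difference by cells was -3.86 points (-7.62 to -0.30).

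The joint call was the V call with the most clonotypes in every library, among 22 calls. It held 20% of clonotypes in YTBI_Isotype (44 of 220, interval 14.9 to 25.9) and 12.6% in YTBI_aCD49d (57 of 453). In the aged libraries it held 10.9% with isotype (49 of 449) and 11.95% with aCD49d Ab (63 of 527). Its share differed from that of YTBI_Isotype by -7.42 points in YTBI_aCD49d (-14 to -1.30) and by -9.09 points in ATBI_Isotype (-15.6 to -3.06). TRBV13-1 held 9.09% and 9.27% of clonotypes in the young isotype and aCD49d libraries, and 7.57% and 6.64% in the aged. TRBV13-3 held 4.55% and 5.08% in the young and 8.69% and 7.59% in the aged libraries. The intervals of the age differences of TRBV13-3, 4.14 points with isotype (-0.25 to 7.95) and 2.51 points with aCD49d Ab (-0.72 to 5.70), included 0. TRBV13-2 alone held 1.36% to 3.23%.

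A fold of 1.5 in the share of clonotypes was used to set the members beside all V calls with at least 10 clonotypes in either library. Between ATBI_aCD49d and ATBI_Isotype 0 of the 4 members were that far apart, against 20% of the 20 calls compared. Between YTBI_aCD49d and YTBI_Isotype 2 of 4 were (the joint call, 0.63-fold, and TRBV13-2, 1.78-fold), against 35% of 20 calls. Between ATBI_Isotype and YTBI_Isotype 3 of 4 were (the joint call, 0.55-fold, TRBV13-2, 1.96-fold, and TRBV13-3, 1.91-fold), against 44.4% of 18 calls. In both contrasts the joint call and TRBV13-2, whose most frequent FWR1 to FWR3 sequence was the same, moved in opposite directions. TRBV13-2 rested on 3 clonotypes in YTBI_Isotype, and the intervals of its differences in points included 0. Between the aCD49d libraries 0 of 4 were, against 25% of 20 calls. YTBI_Isotype is the shallowest library, with 220 clonotypes, and both contrasts in which members passed the fold include it. The part of its depth in these folds was not tested.

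**Figure D3:**
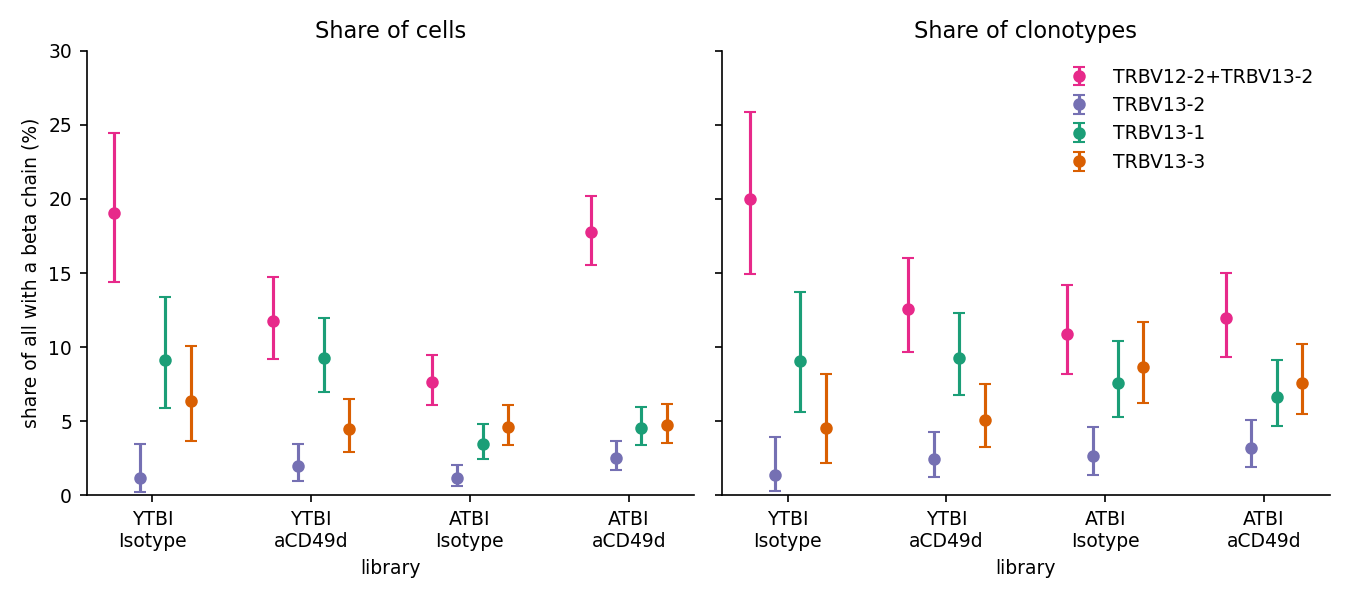
Share (%) of cells (left) and clonotypes (right) with a beta chain that carried each of the 4 family V calls, by library; bars are exact 95% intervals. The joint call is highest in each library and reaches 20% of clonotypes in YTBI_Isotype.

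Repeated receptors made up the highest share of family cells in ATBI_aCD49d. Clonal cells, those in a deposited clonotype of at least 2 cells, were 20.2% of family cells in YTBI_Isotype (18 of 89, interval 12.5 to 30.1) and 21.4% in YTBI_aCD49d (33 of 154, 15.2 to 28.8). They were 28.8% in ATBI_Isotype (49 of 170, 22.2 to 36.3) and 59.2% in ATBI_aCD49d (193 of 326, 53.7 to 64.6). Thinned to the 89 family cells of the smallest library, the expected shares were 16.3% for the young aCD49d, 23.1% for the aged isotype and 51.1% for the aged aCD49d library. ATBI_aCD49d stayed highest and ATBI_Isotype next, while YTBI_aCD49d came to lie below YTBI_Isotype (20.2%). Without the largest deposited clonotype ATBI_aCD49d had 40.9%, and without all 113 cells of that receptor 37.6%.

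In ATBI_Isotype the family was less clonal than the rest of the repertoire. Cells with other beta chains were clonal in 70.98% (592 of 834, interval 67.8 to 74.04), a difference of -42.2 points, family minus other (-49.5 to -34.1). Only 1 of its 134 clonotypes had 10 or more cells, with 17 cells, while 8 of 315 other clonotypes did and held 412 cells. In ATBI_aCD49d the family (59.2%) and the others (59.7%) differed by -0.46 points (-7.01 to 5.98). There 3 family clonotypes had 10 or more cells and together held 128 cells. In YTBI_Isotype the difference was 0.59 points (-9.83 to 12.02) and in YTBI_aCD49d -6.76 points (-14.5 to 1.75), and no family clonotype there had 10 cells. Without the largest receptor of each library the differences were -6.22 points in YTBI_Isotype (-15.7 to 4.76), -1.06 points in YTBI_aCD49d (-8.74 to 7.34), -37.9 points in ATBI_Isotype (-45.4 to -29.7) and -22.1 points in ATBI_aCD49d (-29.5 to -14.4). Thinned to 89 cells each, the family and other shares were 20.2% and 13.4% in YTBI_Isotype and 16.3% and 17.8% in YTBI_aCD49d. They were 23.1% and 52.9% in ATBI_Isotype. In ATBI_aCD49d they were 51.1% and 43.9%, so that the family came to lie above the others there.

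**Figure D4:**
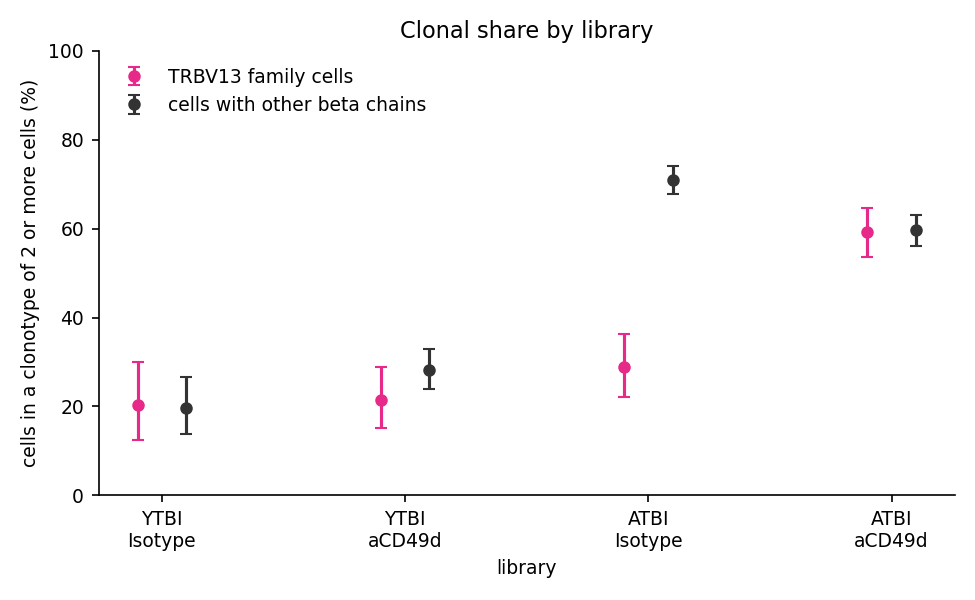
Cells in a deposited clonotype of 2 or more cells (%), for TRBV13 family cells (pink) and cells with other beta chains (black), by library; bars are exact 95% intervals. In ATBI_Isotype the family (28.8%) lies below the other cells (70.98%), and in ATBI_aCD49d they lie at 59.2% and 59.7%.

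Within the family the clonal cells of the aged libraries lay mostly in the joint call. In ATBI_aCD49d 73.5% of its cells were clonal (144 of 196), against 46.4% of TRBV13-2 cells (13 of 28), 42% of TRBV13-1 cells (21 of 50) and 28.8% of TRBV13-3 cells. Of the 144 cells 101 were of 1 clonotype, and 12 of the 13 clonal TRBV13-2 cells carried the same receptor. Without all 113 cells of that receptor the joint call had 45.3% (43 of 95, interval 35 to 55.8), near TRBV13-1, and TRBV13-2 had 6.25% (1 of 16, 0.16 to 30.2). In ATBI_Isotype the shares were 44.2% (34 of 77) in the joint call, 28.3% in TRBV13-3, 5.71% in TRBV13-1 (2 of 35) and 0% in TRBV13-2 (0 of 12). Without its largest receptor, of 18 cells over both calls, the joint call there had 28.3% (17 of 60, 17.5 to 41.4), as TRBV13-3 did. Since no deposited clonotype held both calls, a TRBV13-2 cell did not count as clonal for sharing its CDR3 with joint-call cells. In ATBI_Isotype 1 of the 12 TRBV13-2 cells shared the CDR3 of 17 joint-call cells, and some of the 16 in ATBI_aCD49d shared theirs too. The TRBV13-2 shares can therefore not be read as a difference from the joint call. TRBV13-1 was clonal in 32.7% of cells in YTBI_aCD49d, spread over 7 clonotypes of at most 5 cells.

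The largest family clonotypes of each library are shown with their junctions, since size and sequence together identify a clone. Capitals again mark the bases that match neither germline end.
YTBI_Isotype, TRBV13-3 with TRBJ2-7, 7 cells: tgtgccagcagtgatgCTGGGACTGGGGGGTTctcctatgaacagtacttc
YTBI_Isotype, joint call with TRBJ2-1, 4 cells: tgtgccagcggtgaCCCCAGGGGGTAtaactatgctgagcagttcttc
YTBI_Isotype, TRBV13-1 with TRBJ2-4, 3 cells: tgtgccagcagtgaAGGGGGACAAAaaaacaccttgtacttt
YTBI_aCD49d, TRBV13-1 with TRBJ2-1, 5 cells: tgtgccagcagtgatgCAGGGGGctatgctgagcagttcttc
YTBI_aCD49d, joint call and TRBV13-2 with TRBJ2-4, 6 cells: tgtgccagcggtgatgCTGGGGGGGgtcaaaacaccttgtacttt
ATBI_Isotype, joint call with TRBJ2-3, 7 cells: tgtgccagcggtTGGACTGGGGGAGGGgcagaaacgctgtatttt
ATBI_aCD49d, joint call with TRBJ2-5, 15 cells: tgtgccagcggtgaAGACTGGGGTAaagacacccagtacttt

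The 7-cell clonotype of YTBI_Isotype paired with TRAV9-2 and TRAJ33 in 5 cells, the 17-cell one of ATBI_Isotype with TRAV12-1 and TRAJ22 in 12 cells, and the 15-cell one of ATBI_aCD49d with TRAV9D-3 and TRAJ32 in 13 cells. In each of these every alpha chain read was of that 1 pair of segments. The third place in YTBI_aCD49d was shared by 3 clonotypes of 3 cells. The third in ATBI_Isotype had 4 cells, 3 of which carried the joint beta chain with TRBJ1-3.

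The family used TRBJ2 segments less in the aged than in the young libraries, though not every setting kept the interval of this difference off 0. Each distinct beta of a clonotype was counted once, which gave 500 family and 1191 other betas. The TRBJ2 cluster, the J segments nearer the second constant gene, was used by 75.3% of family betas in YTBI_Isotype (58 of 77, interval 64.2 to 84.4) and 73.7% in YTBI_aCD49d (98 of 133, 65.4 to 80.9). The aged shares were 56.3% with isotype (76 of 135, 47.5 to 64.8) and 57.4% with aCD49d Ab (89 of 155, 49.2 to 65.3). Both young libraries were above both aged ones. The difference, aged minus young, was -19.03 points with isotype (-31.7 to -5.002) and -16.3 points with aCD49d Ab (-27.2 to -4.78). The isotype interval included 0 with the joint call left out (-12.02 points, -30.98 to 9.39) or without TRAV11-TRAJ18 cells (-13.5 points, -27.4 to 2.15), and the aCD49d interval did with both chains required (-10.9 points, -23.1 to 1.97). By member, the isotype difference was -22.6 points in the joint call (-40.6 to -2.58), -20.0 points in TRBV13-1 (-45.2 to 9.97) and 0 points in TRBV13-3 (60% in both, -32.5 to 37), which rests on 10 young betas. With aCD49d Ab it was -14.8 points in the joint call (-31.95 to 3.53), -10.5 points in TRBV13-1 (-31.9 to 11.3) and -23.3 points in TRBV13-3 (-45.1 to 3.76). Among these 6 differences only the isotype one of the joint call had an interval that excluded 0. In other betas the same differences were -8.43 points (-17.6 to 1.26) and -1.83 points (-9.03 to 5.44). Whether the family and the other betas differ in their age difference was not tested. Between treatments the family differed by -1.64 points in young (-14 to 11.7) and 1.12 points in aged mice (-10.7 to 12.9).

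All 12 TRBJ segments seen in these libraries were found with the family. Over the 4 libraries TRBJ2-7 was its most frequent partner at 16.2% (81 of 500), followed by TRBJ2-5 at 12.8% and TRBJ2-1 at 12%. Other betas used TRBJ2-7 in 20.7%, TRBJ2-5 in 9.74% and TRBJ2-1 in 10.2%. By library the family used TRBJ2-7 in 9.09%, 21.8%, 19.3% and 12.3% in the order YTBI_Isotype, YTBI_aCD49d, ATBI_Isotype and ATBI_aCD49d, so neither age nor treatment ordered it. TRBJ2-5 was used in 18.2% and 17.3% of family betas in the young libraries, 4.44% in ATBI_Isotype (6 of 135, interval 1.65 to 9.42) and 13.5% in ATBI_aCD49d.

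CDR3 length differed between the libraries by less than its spread within them. The mean over family betas was 14.06 residues in YTBI_Isotype (SD 1.75 over 77 betas), 14.03 in YTBI_aCD49d (SD 1.31), 14.07 in the aged isotype (SD 1.51) and 14.09 in the aged aCD49d library (SD 1.51). Other betas had means of 13.95 to 14 residues. Within the family, over all libraries, the TRBV13-2 call had a mean of 14.47 residues, the joint call 14.23, TRBV13-1 13.97 and TRBV13-3 13.72, against SDs of 1.28 to 1.63.

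The germline ends were read from the genome to see what the junctions kept. The V segments each bring 16 bases into the CDR3, which are the same in TRBV13-1 and TRBV13-3 (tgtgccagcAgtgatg) and differ from those of TRBV13-2 (tgtgccagcGgtgatg) by the 1 base in capitals (A10G, counted from 1 at the first base of the CDR3). TRBV13-3 kept the fewest of them in each library, with a mean of 12.9 bases over 113 betas (SD 2.14), against 13.7 in TRBV13-1, 14.1 in the joint call and 14.3 in TRBV13-2. The stretch that matched neither end had a mean of 9.97 bases (SD 3.81), and 9.79, 9.80, 10.2 and 9.72 bases in TRBV13-1, TRBV13-3, the joint call and TRBV13-2. A chance match counts as germline here, so kept bases are upper values.

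The alpha chain of iNKT cells was the most frequent partner of the family. TRAV11 was found in 86 of the 394 family clonotypes with an alpha chain (21.8%, interval 17.9 to 26.2). The next were TRAV12D-2 with 16 clonotypes, TRAV12-2 and TRAV3D-3 with 14 each and TRAV7D-2 with 12. In clonotypes with other beta chains TRAV11 made up 2.88% (27 of 939). TRAV12D-2 and TRAV3D-3 made up 3.19% and 3.62% there, near their 4.06% and 3.55% in the family.

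TRAV11 with TRAJ18, here called iNKT-like from the receptor alone, was found in 23.3% of family cells with an alpha chain in YTBI_Isotype (17 of 73, interval 14.2 to 34.7). It was found in 19.5% in YTBI_aCD49d (22 of 113, 12.6 to 27.98). The aged libraries had it in 16.5% with isotype (19 of 115, 10.25 to 24.6) and 10.9% with aCD49d Ab (28 of 258, 7.33 to 15.3). In cells with other beta chains it was found in 2.24%, 3.40%, 0.36% and 1.52%. The family was above the other chains in each library, by 21.05, 16.1, 16.2 and 9.33 points, and every interval of this difference excluded 0. By clonotypes the family shares were closer, at 26.98%, 21.4%, 20.4% and 20%, with ATBI_aCD49d again the lowest.

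Over the 4 libraries 86 of the 112 iNKT-like cells with a beta chain carried the family. The joint call had 58 of them, TRBV13-1 20, TRBV13-2 5 and TRBV13-3 3. TRBV1 and TRBV29, the other known iNKT partners, had 11 and 10. As a share of clonotypes with an alpha chain, the pair was found in 33.3% of the joint call (57 of 171, interval 26.3 to 40.9), 16.1% of TRBV13-2 (5 of 31, 5.45 to 33.7), 19.4% of TRBV13-1 (20 of 103, 12.3 to 28.4) and 3.33% of TRBV13-3 (3 of 90, 0.69 to 9.43). The interval of TRBV13-3 lay below those of TRBV13-1 and the joint call.

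iNKT-like family receptors were almost never repeated. The 86 cells fell into 85 clonotypes, while the 473 family cells with another alpha chain fell into 309. Deposited clonotypes of at least 2 cells held 5 of the 86 cells, 4 of them in ATBI_aCD49d, and 209 of the 473.

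In the TRBV13-2 group iNKT-like receptors had longer CDR3s and rarely used TRBJ2-7. There the 62 iNKT-like betas had a mean CDR3 of 14.92 residues (SD 1.56), and the 140 betas with another alpha chain 13.94 (SD 1.53). The difference was 1.91 residues in YTBI_Isotype, 0.56 in YTBI_aCD49d, 0.97 in the aged isotype and 0.79 in the aged aCD49d library, so that iNKT-like chains were longer in 4 of 4 libraries. With 4 libraries the smallest 2-sided p an exact paired permutation test can give is 0.125, so none was run. A length of 15 residues was found in 38.7% of iNKT-like betas and 22.9% of the others. TRBJ2-7 was used by 1 of the 62 iNKT-like betas (1.61%, interval 0.04 to 8.66) and by 26 of 140 others (18.6%, 12.5 to 26.02). In each library it was less frequent in the iNKT-like chains of this group, at 0 of 15, 1 of 15, 0 of 11 and 0 of 21. In TRBV13-1 and TRBV13-3 the order was the other way, with intervals that overlapped. Their 23 iNKT-like betas used TRBJ2-7 in 7 (30.4%, interval 13.2 to 52.9), and the 171 with another alpha chain in 31 (18.1%, 12.7 to 24.7). Their CDR3s had means of 14.17 (SD 1.15) and 13.87 residues (SD 1.42). Over the whole family TRBJ2-7 was used by 8 of 85 iNKT-like betas (9.41%) and 57 of 311 others (18.3%). TRBJ2-5 was the leading partner of the iNKT-like chains of the TRBV13-2 group with 13 of 62 (20.97%), beside 20 of 140 (14.3%).

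**Figure D5:**
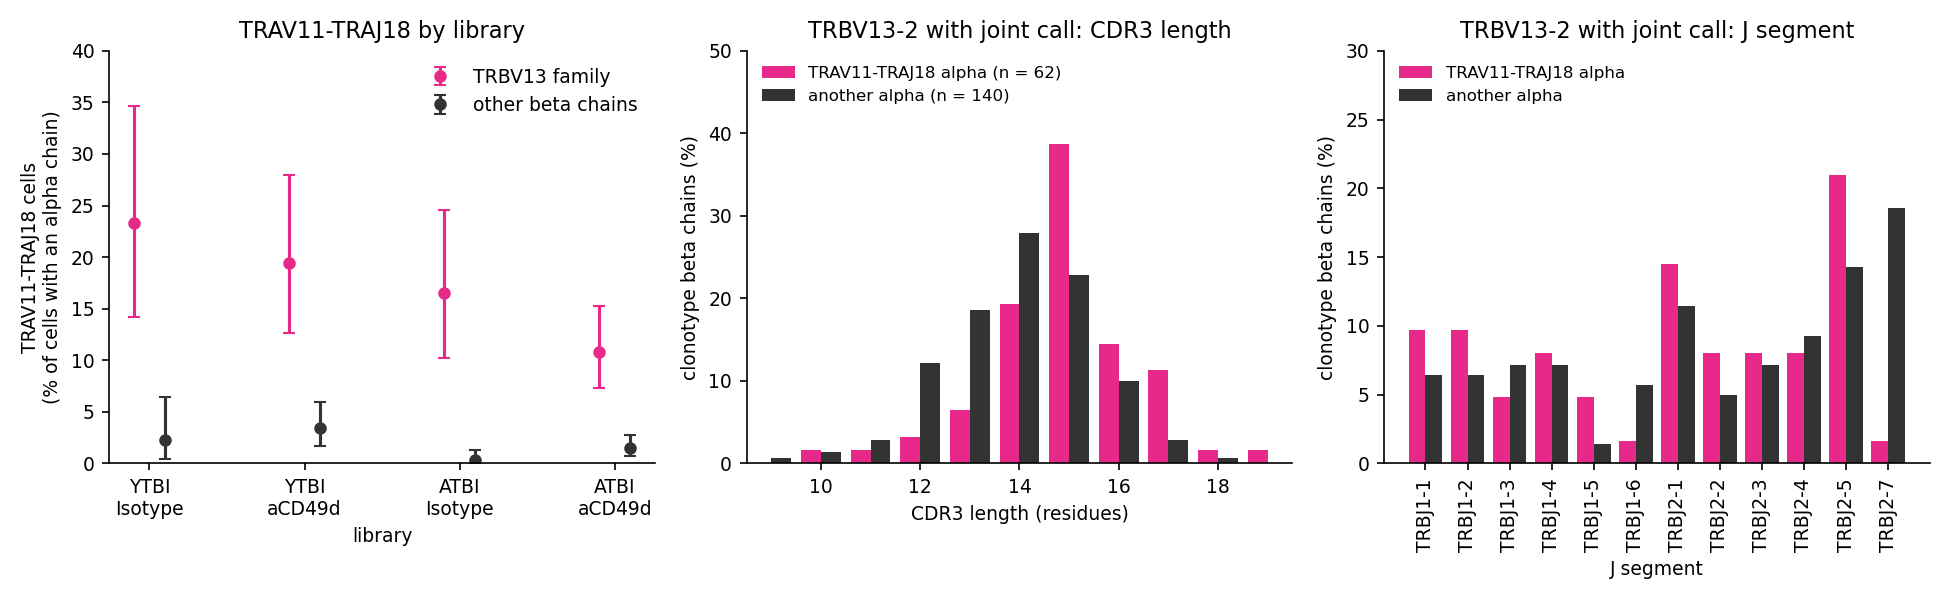
Left, cells with TRAV11-TRAJ18 as a share (%) of cells with an alpha chain, for the TRBV13 family and other beta chains by library, with exact 95% intervals; middle and right, CDR3 length (residues) and J segment of clonotype betas of the TRBV13-2 group (joint call included) with TRAV11-TRAJ18 (n = 62) or another alpha chain (n = 140), as % of betas over the 4 libraries. The family is higher in each library, and in the TRBV13-2 group the iNKT-like betas peak at 15 residues and nearly lack TRBJ2-7 (1.61% against 18.6%).

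The deposited clonotype tables carry columns of evidence for iNKT cells and for mucosal-associated invariant T (MAIT) cells, and these columns followed the name of the V call. All 43 clonotypes with TRBV13-2 were marked with an iNKT beta gene, but of the 213 with the joint call only 1 was. Of the 57 joint clonotypes with TRAV11-TRAJ18, 0 were marked with an iNKT beta gene, against 5 of 5 for TRBV13-2. TRBV13-1 and TRBV13-3 were marked in 0 of 131 and 0 of 112 clonotypes, 23 of which carried TRAV11-TRAJ18. A MAIT beta gene was marked in every clonotype of TRBV13-1 (131), TRBV13-2 (43) and TRBV13-3 (112), and in 1 of 213 with the joint call. Only 2 family cells carried TRAV1 with TRAJ33, the alpha pair of MAIT cells, both in YTBI_aCD49d, 1 with the joint call and 1 with TRBV13-3. The beta column alone thus marked 286 family clonotypes for MAIT that were not of the joint call, of which 1 also had MAIT evidence from its alpha chain.

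Family receptors were private to a library with few exceptions. Of 484 distinct family betas, by V (the joint call counted as TRBV13-2), J and CDR3 residues, 3 were found in 2 libraries (0.62%, interval 0.13 to 1.80) and 0 in 3 or more. In other betas it was 3 of 1169 (0.26%, 0.05 to 0.75). One was TRBV13-2 with TRBJ2-5, the 15-cell receptor of ATBI_aCD49d, which occurred in 1 cell of YTBI_aCD49d with other nucleotides. That 1 cell had the alpha pair TRAV11-TRAJ18, while none of the 15 cells had it. The third, TRBV13-2 with TRBJ2-5 and 12 residues, had the same nucleotides in both young libraries. The junctions are shown because the same residues came from different bases in the first 2 pairs.
ATBI_aCD49d, 15 cells: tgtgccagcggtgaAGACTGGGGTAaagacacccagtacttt
YTBI_aCD49d, 1 cell: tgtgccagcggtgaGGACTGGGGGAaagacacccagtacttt
ATBI_Isotype, TRBV13-1 with TRBJ2-7, 1 cell: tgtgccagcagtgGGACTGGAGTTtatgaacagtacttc
ATBI_aCD49d, TRBV13-1 with TRBJ2-7, 1 cell: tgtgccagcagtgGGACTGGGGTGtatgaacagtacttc
YTBI_Isotype and YTBI_aCD49d, 1 cell each: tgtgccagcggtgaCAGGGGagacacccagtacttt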

How the data were processed

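Single-cell T cell receptor libraries (10x 5′ immune profiling) were processed by the authors with Cell Ranger 7.2.0 (per the submitters' processing notes) against mm10. The deposited contig tables give reads and UMIs per chain as counts and the contig length in bases. The deposited clonotype tables list each clonotype's cells as a count, with the fraction of all cells that they make up. The authors then kept only receptor sequences that were associated with T cells, a step not repeated here. Libraries were compared with Python 3 scripts (scipy, exact intervals at 95%, Newcombe differences) without a test, since each group had 1 library. Intervals and differences were checked on simulated data. Germline segments were read from GRCm38 with GENCODE vM21. V calls, 3 leading TRBJ, 5 leading TRAV, the 3 largest clonotypes of at least 3 cells per library and betas in several libraries were named. Members and lists were chosen with earlier results of these data known. No column of other samples was used, and single-cell expression was not analysed here.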

Additional observations from a re-analysis of the deposited data

Results flagged for a closer look

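The difference between aCD49d and isotype libraries had opposite signs in aged and young mice for 4 summaries of the family, each from 1 library per group, and whether the ages differ in it was not tested. The family share of cells was 12.7 points higher with aCD49d Ab in aged and fell by 7.915 points in young mice, and these signs held in all 7 other settings tried for it. The differences were smaller without the largest deposited clonotypes (3.55 points in aged, -4.52 in young). They were smaller too without the joint call (2.53 and -1.01 points). In both of these settings the intervals of both ages included 0. The joint call as a share of the TRBV13-2 group was 0.98 points higher in aged and fell by 8.40 points in young mice. It was lower in both ages without the largest deposited clonotypes (-9.28 points in aged, -8.40 in young) and in cells with both chains (-2.42 and -2.11 points), 2 of its 6 other settings. The TRBJ2 share of family betas was 1.12 points higher in aged and fell by 1.64 points in young mice. These signs did not hold in 3 of 7 other settings, without cells of several chains (-0.41 points in aged, -1.67 in young), without the joint call (2.96 and 8.33) and without TRAV11-TRAJ18 cells (-4.17 and 0.68). The mean CDR3 length was 0.024 residues higher in aged and fell by 0.035 residues in young mice, which is within the SD over clonotypes in each library, and the signs did not hold in 5 of 7 other settings.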

How the results depend on the processing

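Of 294 recomputed values 261 stayed inside the interval (for CDR3 length, 1 SD) of the value reported and 0 reversed a difference whose interval excluded 0. The range for CDR3 length was wide (12.3 to 15.8 residues in YTBI_Isotype), so a mean could hardly leave it and its values say little here. Leaving the joint call out of the family gave a share of cells of 16.7% (YTBI_Isotype), 15.7% (YTBI_aCD49d), 9.26% (ATBI_Isotype) and 11.8% (ATBI_aCD49d), and of clonotypes of 15%, 16.8%, 18.9% and 17.5%. It gave a TRAV11-TRAJ18 share of 11.8% and 11.1% in the young libraries, a clonal share of 16.1% in ATBI_Isotype and 37.7% in ATBI_aCD49d (-52.6 and -24.8 points from other cells), and differences in the share of cells of 2.53 (ATBI_aCD49d minus ATBI_Isotype), -7.40 (ATBI_Isotype minus YTBI_Isotype) and -3.86 points (ATBI_aCD49d minus YTBI_aCD49d), and of clonotypes of 3.93 points (ATBI_Isotype minus YTBI_Isotype). Between the young libraries it left -1.01 points by cells and 1.78 points by clonotypes, and both intervals include 0.

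Without the largest deposited clonotype, ATBI_aCD49d had a family share of cells of 22.5%, a joint share of 77.2% and a clonal share of 40.9% (-18.8 points from other cells), and its share of cells was 3.55 points above ATBI_Isotype and -6.47 points from YTBI_aCD49d. Without the largest receptor by V gene and beta CDR3, the family share of cells in ATBI_aCD49d was 21.5%. The clonal share of its family cells was 37.6% (-22.1 points from other cells). The family share of cells was then 2.61 points above ATBI_Isotype and -7.41 points from YTBI_aCD49d. The joint share was not recomputed in this setting. This alternative was chosen after seeing the data. So were those on differences by cells, in clonal share, in TRBJ2 share between ages and on the clonal share of each V call. With at least 3 cells for a clonal clonotype the clonal share was 12.3% (YTBI_aCD49d), 19.4% (ATBI_Isotype) and 53.4% (ATBI_aCD49d), and thinned to 89 cells it was 51.1% in ATBI_aCD49d. Counting clonotypes by V gene and beta CDR3, requiring 2 UMIs or both chains, or leaving out multi-chain or TRAV11-TRAJ18 cells moved 0 values outside. Some of these settings did change whether an interval included 0. The young difference by cells was -7.11 points without multi-chain cells (-14.4 to 0.014) and -6.08 points without TRAV11-TRAJ18 cells (-13.4 to 0.99). With both chains required, the clonal difference in YTBI_aCD49d, family minus other, was -9.38 points (-17.4 to -0.067). The age difference in TRBJ2 share was negative in every setting tried, but its interval reached 0 in 2 isotype settings (-12.02 points without the joint call, -13.5 without TRAV11-TRAJ18 cells) and in 1 aCD49d setting (-10.9 points with both chains).

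No paired analysis was possible because the contrasts between groups set 1 library against 1. Depth limits YTBI_Isotype most, with 89 family cells, where 0 counts would allow a share of up to 3.37% (3 counts of the 89). This is a limit of 3 counts and not the upper end of an exact interval.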

Other observations

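A base change was found inside the largest receptor of ATBI_aCD49d. Of the 101 cells of its joint-call clonotype, 4 (3.96%, exact interval 1.09 to 9.83) carried G166A in the V region, counted from 1 at the first base of FWR1, which is chr6:41121712 on GRCm38, in the exon of Trbv13-2 and in FWR3. The change alters the encoded residue. The 97 other beta chains of the clonotype all had the germline base, and no other family contig of the 4 libraries differed from its germline V region. The 4 chains rested on 9 to 23 UMIs (median 17.5, against 9 in the rest of the clonotype), and their cell barcodes differed from each other at 11 or more bases. All 4 cells also had an alpha chain, with the CDR3 nucleotides of the rest of the clonotype. The deposited tables list them as 1 exact subclonotype of their own. What the change does was not tested.

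V beta 8.1, 8.2 and 8.3 are often read as 1 group by antibody. By cells TRBV13-2 with the joint call made up 57.3% and 50% of the family in the young isotype and aCD49d libraries, and 52.4% and 68.7% in the aged. Without the 113 cells of the largest receptor of ATBI_aCD49d it made up 52.1% there (111 of 213). By clonotypes it made up 61.8%, 51.1%, 45.5% and 51.6%.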
